A study of Homo sapiens with 6 samples.

Results

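Translation initiation factors were taken from the gene tables of HEC-1-A cells as every gene whose symbol begins with EIF and a digit from 1 to 6. This rule found 60 of the 23228 genes listed, and 57 of the 13408 genes with enough counts to be tested. They comprise the subunits of eIF1 to eIF6, the eIF4E-binding proteins and the kinases of eIF2, together with 4 Argonaute genes (EIF2C1 to EIF2C4) that the annotation still lists under older symbols. The genes that could not be tested were EIF1AY, the pseudogene EIF3IP1 and EIF4E1B, a germline form of eIF4E with 5 reads over the 6 libraries.

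Translation of most mRNAs begins when eIF2, carrying GTP and the initiator tRNA, joins the small ribosomal subunit with eIF1, eIF1A, eIF3 and eIF5, and when eIF4E, eIF4G and the helicase eIF4A bring this subunit to the capped end of the mRNA. Cells limit the process at 2 well-known points. Kinases phosphorylate the alpha subunit of eIF2, which then blocks its exchange factor eIF2B, and hypophosphorylated 4E-binding proteins keep eIF4E from eIF4G when mTORC1 activity is low. The measurements below are of mRNA levels, and say nothing of phosphorylation or protein.

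HEC-1-A is an established human endometrial adenocarcinoma line. RNA-seq was performed on 3 libraries labelled Control, which per the study received vehicle while their labels name culture medium alone, and on 3 libraries of cells that received SMIP34, a small molecule that binds the scaffold protein PELP1, at 20 µM for 24 h. All libraries came from this single line, and the labels number the replicates without saying whether they were separate cultures, so p-values measure the spread between these libraries, which may be technical. Counts on genes came to between 19562711 and 22014835 per library. Levels are given as CPM, the reads of a gene per 1000000 reads on genes in its library, scaled between libraries by the TMM method. The epithelial markers KRT8, KRT18, KRT19, EPCAM, CDH1, CLDN4 and PAX8 summed to 3993 ± 64.7 CPM in Control and 3899 ± 15.5 CPM in SMIP34 (SD, n = 3). Of the 7, 1 (14.3%) was higher, against 17.4% of all genes tested, and 3 (42.9%) were lower, against 17.2%. No leukocyte (5 listed) or endothelial (3 listed) marker had enough counts to be tested, and their sums were at most 0.501 and 0.721 CPM in any library. Of 6 stromal markers, COL1A1 and PDGFRB were tested, and the sum of the 6 lay between 3.63 and 4.47 CPM in Control and between 4.69 and 5.18 CPM in SMIP34. COL1A1 was higher with SMIP34 (log2 fold change 0.50, adjusted p = 0.0151, and 0.0736 with DESeq2), while COL1A2, COL3A1 and DCN were at 0.112 CPM or less in the mean of either group and LUM was at 0. The part of COL1A1 in the results was not tested. PELP1 mRNA stood at 133, 146 and 138 CPM in the Control libraries and at 158, 159 and 151 CPM in the SMIP34 libraries. It was higher with SMIP34, without overlap (log2 fold change 0.16, adjusted p = 0.000746, and 0.000916 with DESeq2). The study reported by Western blotting that SMIP34 lowered PELP1 protein, which mRNA levels do not measure.

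The initiation factors shifted in both directions by small amounts. With edgeR's quasi-likelihood test and an adjusted p under 0.05, 13 of the 57 genes (22.8%) were higher in SMIP34-treated cells, against 17.4% of all genes tested, and 12 (21.1%) were lower, against 17.2%. Both shares lay near the background of the whole transcriptome. No member passed the further limit of an absolute log2 fold change over 0.5, which 3.31% of all genes passed, since the largest absolute value among the members was 0.39 (DESeq2 and limma voom also gave 0). The median log2 fold change was 0.0068 over the members and -0.0022 over all genes, and the median absolute values were 0.096 and 0.12. Without the Argonaute genes, 11 of 53 were higher and 12 were lower. In bulk RNA, fewer cells of a kind and less RNA per cell cannot be told apart. The plot of all fold changes shows how the calls fall in each factor.

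**Figure D1:**
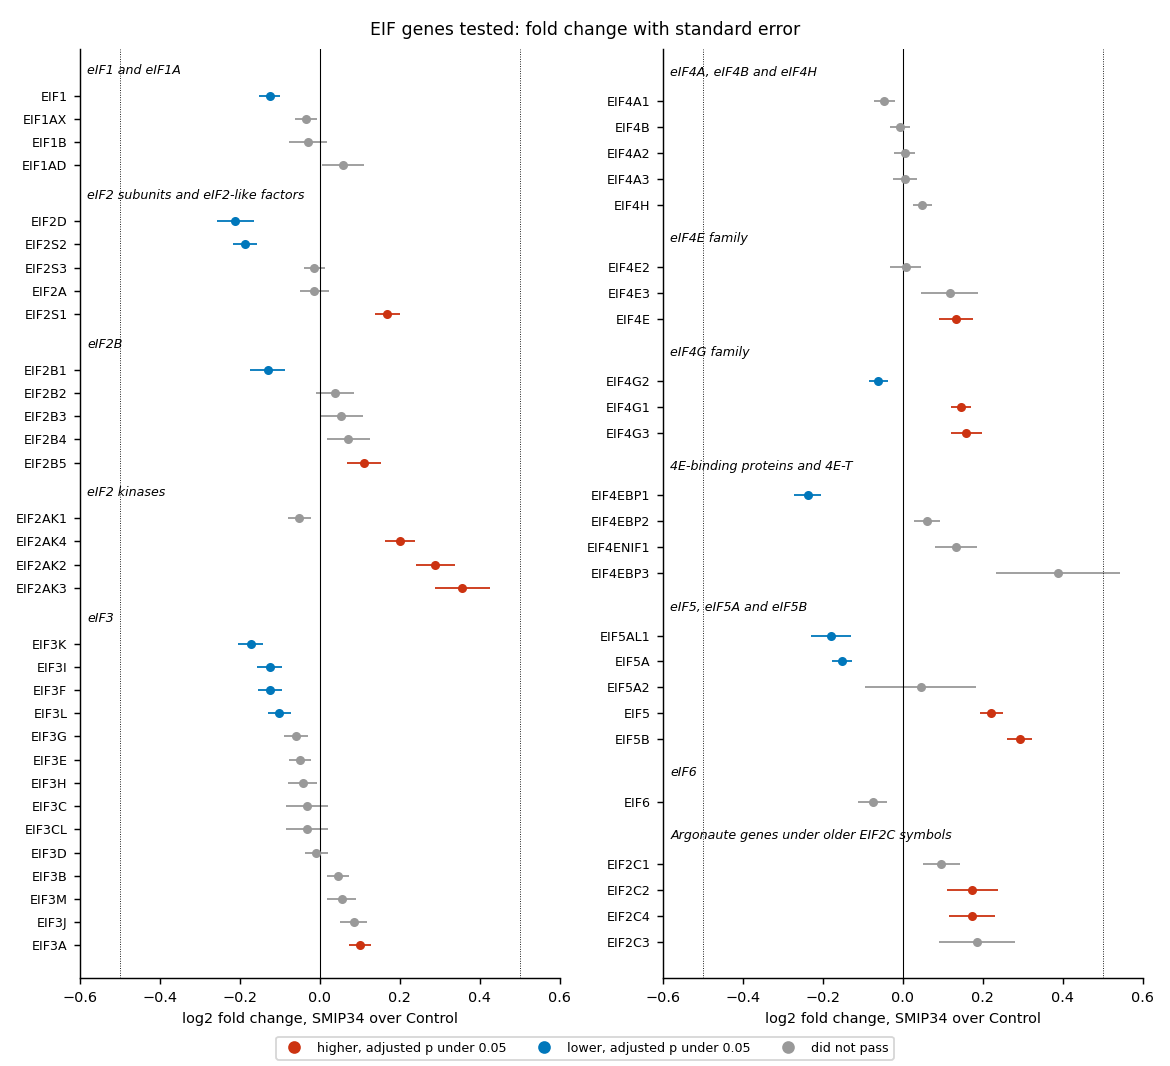
Log2 fold change (SMIP34 over Control, horizontal axis) of the 57 EIF genes tested, grouped by factor; points are estimates of edgeR's quasi-likelihood fit, bars are standard errors, and dotted lines mark log2 fold changes of -0.5 and 0.5. Red marks the 13 genes that were higher and blue the 12 that were lower, all inside the dotted lines.

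Of the 4 eIF2 kinases, each switched on by another stress, 3 (75%) were higher, against 17.4% of all genes, and EIF2AK1 did not pass the test. EIF2AK3 (hg19, chr2:88856259-88927094) encodes PERK, the sensor of misfolded protein in the endoplasmic reticulum. Its level was 18.3, 17.5 and 18.5 CPM in the Control libraries and 22.8, 21.9 and 24.6 CPM in the SMIP34 libraries. Every SMIP34 library lay above every Control library, with an increase of 28.0% (log2 fold change 0.36, standard error 0.068, adjusted p = 0.000196). EIF2AK2 (hg19, chr2:37333699-37384190) encodes PKR, which binds double-stranded RNA. It was at 40.2, 40.1 and 44.1 CPM in Control and at 51.3, 51.6 and 49.0 CPM in SMIP34. The groups again did not overlap, and the increase was 22.1% (log2 fold change 0.29, standard error 0.049, adjusted p = 4.2e-05). EIF2AK4 (hg19, chr15:40226347-40327797) encodes GCN2, the sensor of uncharged tRNA, and was at 77.5, 78.5 and 79.5 CPM in Control and at 87.2, 92.6 and 91.0 CPM in SMIP34. This was an increase of 14.9% without overlap (log2 fold change 0.20, standard error 0.037, adjusted p = 0.000131). EIF2AK1, which encodes the heme-regulated kinase HRI, was at 234, 232 and 232 CPM in Control and at 227, 224 and 222 CPM in SMIP34. The SMIP34 values were the lower ones in this case, by less than the test could call (log2 fold change -0.05, adjusted p = 0.164). Per kilobase of exon, EIF2AK1 had 52.1 CPM in Control cells, while EIF2AK2 had 14.2, EIF2AK4 had 14.2 and EIF2AK3 had 3.89. EIF2AK2, EIF2AK3 and EIF2AK4 kept their call in each of 18 alternative analyses.

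The 3 subunits of the kinases' substrate, the trimer eIF2, did not move together. EIF2S1 (chr14:67827034-67853233), the alpha subunit that the kinases phosphorylate, was at 134, 130 and 131 CPM in Control and at 146, 152 and 147 CPM in SMIP34. It rose by 12.4% with no overlap between groups (log2 fold change 0.17, standard error 0.032, adjusted p = 0.000172). EIF2S2 (chr20:32676115-32700085), the beta subunit, which contacts eIF5 and eIF2B, was at 214, 210 and 211 CPM in Control and at 182, 183 and 192 CPM in SMIP34. It fell by 12.1%, again without overlap (log2 fold change -0.19, standard error 0.030, adjusted p = 2.4e-05). EIF2S3, the gamma subunit that holds GTP and the tRNA, was at 319, 317 and 319 CPM in Control and at 313, 319 and 314 CPM in SMIP34. These values overlapped, and the log2 fold change was -0.01 (standard error 0.027, adjusted p = 0.722). Per kilobase of exon, the gamma subunit had 92.0 CPM in Control cells, the beta subunit 81.6 and the alpha subunit 31.7. The 3 subunits together summed to 662 ± 5.43 CPM in Control and 649.6 ± 7.63 CPM in SMIP34 (SD, n = 3).

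**Figure D2:**
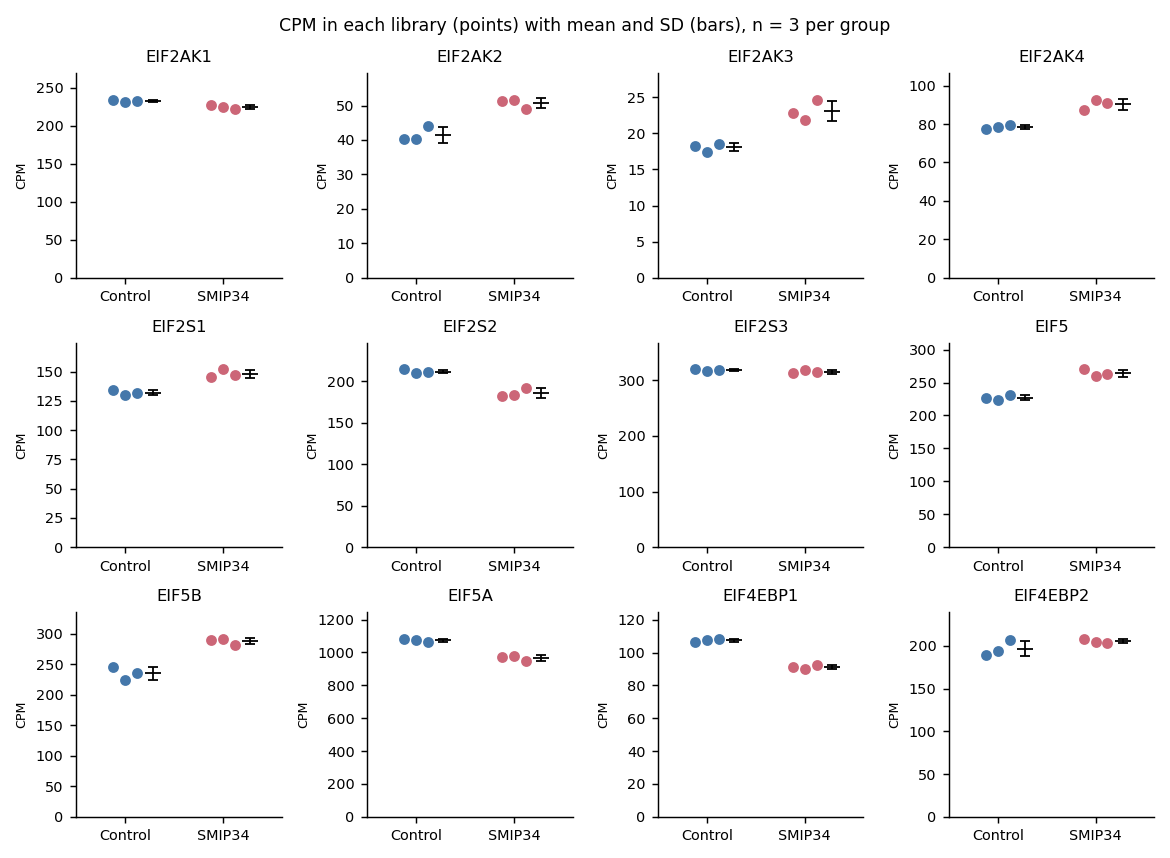
CPM (vertical axes, from 0) of 12 initiation factor genes in each of the 3 Control and 3 SMIP34 libraries, with the mean and SD of each group beside the points. EIF2AK2, EIF2AK3, EIF2AK4, EIF2S1, EIF5 and EIF5B lay higher in every SMIP34 library, EIF2S2, EIF5A and EIF4EBP1 lay lower, EIF2AK1 lay slightly lower without passing the test, and the values of EIF2S3 and EIF4EBP2 overlapped.

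EIF2D encodes a factor that can place tRNA on the ribosome without GTP. It was at 44.8, 46.6 and 44.4 CPM in Control and at 39.0, 38.6 and 39.7 CPM in SMIP34. It fell by 13.6%, with every SMIP34 library below every Control library (log2 fold change -0.21, standard error 0.047, adjusted p = 0.000973). EIF2A, a monomeric factor that is not part of the eIF2 trimer, had overlapping values and a log2 fold change of -0.01.

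The exchange factor eIF2B, which reloads eIF2 with GTP, has 5 subunits. Of these, 1 (20%) rose, against 17.4% of all genes, and 1 (20%) fell, against 17.2%. EIF2B5, the catalytic epsilon subunit, was at 63.2, 69.0 and 64.0 CPM in Control and at 68.9, 69.4 and 73.8 CPM in SMIP34. The groups overlapped at SMIP34 replicate 1 and Control replicate 2 (log2 fold change 0.11, standard error 0.043, adjusted p = 0.0464). The regulatory alpha subunit EIF2B1 was at 64.1, 66.7 and 62.6 CPM in Control and at 60.2, 60.0 and 56.5 CPM in SMIP34. Its groups did not overlap (log2 fold change -0.13, standard error 0.043, adjusted p = 0.0178). Neither call held throughout. That of EIF2B1 was lost without Control replicate 2 (adjusted p = 0.103) or SMIP34 replicate 3 (adjusted p = 0.114), and that of EIF2B5 without Control replicate 1, Control replicate 3, SMIP34 replicate 2 or SMIP34 replicate 3 (adjusted p between 0.0644 and 0.225). With DESeq2 neither passed (adjusted p = 0.0709 for EIF2B1 and 0.123 for EIF2B5). EIF2B2, EIF2B3 and EIF2B4 had log2 fold changes between 0.04 and 0.07 and did not pass.

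Among the factors that scan for the start codon, EIF1, which guards start codon choice, fell. It was at 586, 601 and 574 CPM in Control and at 535, 530 and 549 CPM in SMIP34, so that every SMIP34 library was lower (log2 fold change -0.13, standard error 0.026, adjusted p = 0.000516). EIF1AX, which encodes eIF1A, the paralog EIF1B and EIF1AD, grouped here by its symbol alone, had log2 fold changes between -0.03 and 0.06 and did not pass. EIF1AD, the highest of this group by fold change, was at 33.8, 33.6 and 33.1 CPM in Control and at 35.6, 33.2 and 35.8 CPM in SMIP34, which overlapped.

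The scaffold eIF3 holds the other factors on the small subunit. Of its 14 genes tested, 1 (7.14%) was higher, against 17.4% of all genes, and 4 (28.6%) were lower, against 17.2%. EIF3A, the largest core subunit, was at 382, 373 and 374 CPM in Control and at 392, 409 and 409 CPM in SMIP34. The rise was 7.13% without overlap (log2 fold change 0.10, standard error 0.027, adjusted p = 0.00565). EIF3K, a small peripheral subunit, was at 216, 220 and 213 CPM in Control and at 193, 185 and 198 CPM in SMIP34. It fell by 11.3% without overlap (log2 fold change -0.17, standard error 0.031, adjusted p = 7.88e-05). EIF3L, the partner of EIF3K in the complex, and EIF3F and EIF3I also fell, with log2 fold changes of -0.10, -0.13 and -0.13 and groups that did not overlap. The 9 other eIF3 genes had log2 fold changes between -0.06 (EIF3G) and 0.08 (EIF3J). With length offsets, described below, the calls of EIF3A, EIF3F, EIF3I and EIF3L were lost. EIF3J (adjusted p = 0.00887) and EIF3M (0.00238) then passed as higher. In sum the eIF3 genes were at 2676 ± 28.6 CPM in Control and 2625 ± 15.7 CPM in SMIP34 (SD, n = 3). EIF3C and EIF3CL are near-identical copies that share 6097 exon bases on the same strand, and reads counted on these bases were divided between them. Their counts are thus uncertain singly. Their sum was 76.8 ± 4.77 CPM in Control and 75.2 ± 1.53 CPM in SMIP34, but it may be incomplete. Reads under a mapping quality of 2 were not counted, and reads that fit both copies may be among them. Per kilobase of exon the pair had 11.4 CPM in Control, against 71.0 for EIF3A and 96.7 for EIF3B. The part of uncounted reads was not tested.

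The helicase eIF4A and its helpers eIF4B and eIF4H, which unwind the leader of the mRNA, had small fold changes. None of the 5 genes passed edgeR's test, DESeq2 or limma voom, and 0 had an unadjusted p under 0.05. EIF4A3 is counted among the 5 by its symbol alone. With length offsets, described below, EIF4A2 (adjusted p = 0.0367) and EIF4H (0.0047) passed as higher, and EIF4H also did with library size only (0.0337). Their log2 fold changes ran from -0.05 (EIF4A1) to 0.05 (EIF4H). EIF4A1 was at 710.0, 740.5 and 719.5 CPM in Control and at 704, 687 and 711 CPM in SMIP34, with overlap. EIF4H was at 775, 778 and 785 CPM in Control and at 803, 807 and 808 CPM in SMIP34, without overlap but with an adjusted p of 0.128. All 1877 exon bases of EIF4A1 lie within those of the read-through gene SENP3-EIF4A1, and reads were divided between both. The pair summed to 1535 ± 34.6 CPM in Control and 1500 ± 22.9 CPM in SMIP34.

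EIF4E, the cap-binding protein and the limiting part of the cap complex in many cells, was at 84.0, 94.3 and 83.1 CPM in Control and at 99.0, 93.3 and 94.7 CPM in SMIP34. Control replicate 2 lay within the range of the SMIP34 libraries. The call (log2 fold change 0.13, standard error 0.043, adjusted p = 0.0161) was lost without Control replicate 1 (adjusted p = 0.0843), Control replicate 3 (0.0693) or SMIP34 replicate 1 (0.0952). EIF4E2, a cap-binding repressor also known as 4EHP, was at 74.5, 70.4 and 70.2 CPM in Control and at 71.7, 73.5 and 70.8 CPM in SMIP34 (log2 fold change 0.01), and EIF4E3 did not pass with a log2 fold change of 0.12.

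The scaffold eIF4G, which bridges eIF4E and the ribosome, rose in its 2 canonical forms. EIF4G1 (hg19, chr3:184032283-184053146) was at 578, 577 and 591 CPM in Control and at 644, 643 and 643 CPM in SMIP34. This was an increase of 10.5% with no overlap (log2 fold change 0.14, standard error 0.025, adjusted p = 5.65e-05). EIF4G3 was at 64.8, 67.4 and 69.8 CPM in Control and at 74.8, 76.3 and 74.4 CPM in SMIP34, also without overlap (log2 fold change 0.16, standard error 0.040, adjusted p = 0.00271). EIF4G2, also known as DAP5, lacks the site for eIF4E and serves initiation without it. It was at 845, 840 and 848 CPM in Control and at 813, 804 and 810 CPM in SMIP34, and fell by 4.21% (log2 fold change -0.06, standard error 0.024, adjusted p = 0.0487). Its call was lost in 9 of 18 alternatives, among them those without Control replicate 1, Control replicate 2 or any SMIP34 replicate, with adjusted p between 0.0649 and 0.157.

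The 4E-binding proteins did not move together. EIF4EBP1 (hg19, chr8:37888020-37917883), which encodes 4E-BP1, was at 107, 108 and 108 CPM in Control and at 91.0, 90.2 and 92.3 CPM in SMIP34. The groups lay far apart against their spread, and EIF4EBP1 fell by 15.2% (log2 fold change -0.24, standard error 0.034, adjusted p = 4.56e-06). This was the lowest log2 fold change of the members without length offsets. With them it was -0.14, and EIF5AL1 (-0.20), EIF2D (-0.17) and EIF2S2 (-0.16) were lower. EIF4EBP2 was at 189, 194 and 207 CPM in Control and at 208, 205 and 203 CPM in SMIP34. Here Control replicate 3 stood with the SMIP34 libraries (log2 fold change 0.06, adjusted p = 0.151). Without it the adjusted p was 0.00842, and without any other library it lay between 0.188 and 0.485. EIF4EBP3 was scarce, at 3.66, 3.40 and 3.32 CPM in Control and at 4.37, 3.93 and 5.27 CPM in SMIP34. Its log2 fold change of 0.39 was the highest of all members but had a standard error of 0.155 and an adjusted p of 0.0537. Without SMIP34 replicate 2 the adjusted p was 0.0355. Without any other library it lay between 0.0726 and 0.259 (SMIP34 replicate 3), and with DESeq2 it was 0.169. EIF4EBP3 shares 516 of its 691 exon bases with the read-through gene ANKHD1-EIF4EBP3, which had means of 130 CPM in Control and 162 CPM in SMIP34 and rose (adjusted p = 1.45e-08, log2 fold change 0.32). The part of that gene in the EIF4EBP3 values was not tested. EIF4ENIF1, the transporter that carries eIF4E into the nucleus, was higher in every SMIP34 library but did not pass (log2 fold change 0.13, adjusted p = 0.0518). Per kilobase of exon, EIF4EBP1 was the most abundant of the binding proteins, with 125 CPM in Control and 106 CPM in SMIP34, against 26.1 and 27.3 CPM for EIF4EBP2.

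The factors of the last steps gave the strongest calls. EIF5B (hg19, chr2:99953834-100016728) encodes the GTPase that joins the ribosomal subunits, and was at 245, 224 and 236 CPM in Control and at 290, 291 and 282 CPM in SMIP34. All SMIP34 values lay above those of Control, by 22.4% on average (log2 fold change 0.29, standard error 0.031, adjusted p = 5.01e-08). EIF5 (chr14:103800493-103811361), the protein that makes eIF2 hydrolyse its GTP at the start codon, was at 226, 223 and 231 CPM in Control and at 270, 260 and 262 CPM in SMIP34. This was a rise of 16.5% without overlap (log2 fold change 0.22, standard error 0.029, adjusted p = 1.13e-06). EIF5A (chr17:7210318-7215782), a hypusine-bearing protein that chiefly helps elongation despite its name, went the other way. It was at 1082, 1078 and 1064 CPM in Control and at 971, 980 and 949 CPM in SMIP34, and fell by 10.1% without overlap (log2 fold change -0.15, standard error 0.025, adjusted p = 2.34e-05). EIF5AL1, an intronless copy of EIF5A, was at 39.8, 42.5 and 41.7 CPM in Control and at 37.1, 35.9 and 36.4 CPM in SMIP34. It fell as well (log2 fold change -0.18, standard error 0.049, adjusted p = 0.00562), but its count is uncertain because reads of EIF5A can fall on it. EIF5A2 was scarce, with 4.92 ± 0.668 CPM in Control and 5.06 ± 0.371 CPM in SMIP34 (SD, n = 3). EIF6, which keeps the large ribosomal subunit from joining too early, was at 112, 116 and 107 CPM in Control and at 104, 105 and 109 CPM in SMIP34. The values overlapped (log2 fold change -0.08, adjusted p = 0.107). Without Control replicate 3 the adjusted p was 0.0281, but without any other library it lay between 0.0889 and 0.412. With length offsets it was 0.903.

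The 4 Argonaute genes, which carry small RNAs to their targets and belong to the set only by their old symbols, had log2 fold changes between 0.10 and 0.19. EIF2C2 (now AGO2) and EIF2C4 (now AGO4) passed, with adjusted p of 0.0361 and 0.0194. Neither did with DESeq2 (0.118 and 0.0863). The EIF2C2 call was also lost without Control replicate 1 or 3 or SMIP34 replicate 1 or 2 (adjusted p between 0.057 and 0.191), and that of EIF2C4 without Control replicate 2 or SMIP34 replicate 1 or 3 (between 0.0565 and 0.115). EIF2C3 was at 9.79, 11.3 and 9.43 CPM in Control and at 10.8, 11.8 and 12.1 CPM in SMIP34, and EIF2C1 at 57.5, 58.2 and 66.3 CPM in Control and at 64.7, 63.8 and 66.1 CPM in SMIP34. Both overlapped. EIF2C1 had an adjusted p of 0.00384 without Control replicate 3, but between 0.144 and 0.402 without any other library and 0.714 with length offsets.

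Levels per kilobase of exon differed widely between members. EIF5A led with 591 ± 5.36 CPM per kilobase in Control, followed by EIF1 with 443 ± 10.1, EIF4A1 with 385 ± 8.30 and EIF4H with 306 ± 1.93. The place of EIF4A1 rests on how its reads were divided with SENP3-EIF4A1. The sum of the pair over the exon length of EIF4A1 would come to 818 CPM per kilobase, above EIF5A. That value may be too high for EIF4A1, since SENP3-EIF4A1 can also hold reads on exons outside EIF4A1. The mean in Control was 812 CPM for SENP3-EIF4A1 and 723 CPM for EIF4A1. Some neighbours in this order did not differ beyond their spread, such as EIF3G (172 ± 2.50) and EIF3E (171 ± 2.31). EIF5A2 was lowest at 0.889 ± 0.121 CPM per kilobase, and next came EIF4E3 (2.76), EIF2C3 (2.79), EIF2AK3 (3.89) and EIF2C4 (3.93). Among the genes that rose, EIF4G1 was the most abundant on this scale at 94.1 CPM per kilobase in Control, and among those that fell it was EIF5A.

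**Figure D3:**
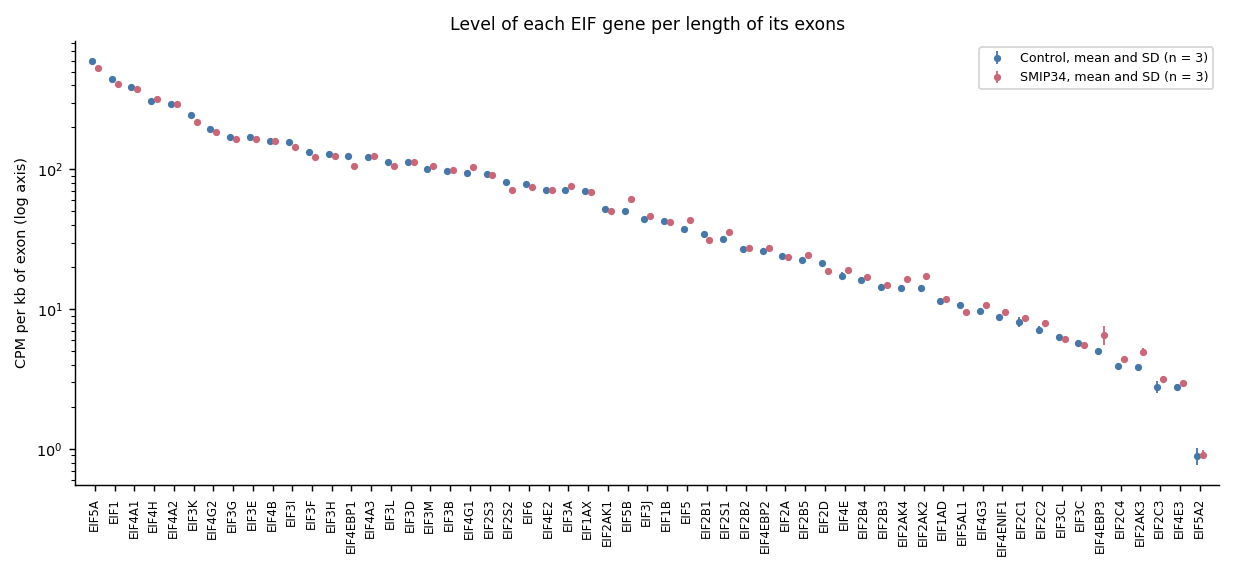
CPM per kilobase of exon (log axis) of the 57 EIF genes tested, ordered by their level in Control; points are means and bars SDs of 3 libraries per group. Levels ran from 591 (EIF5A) to 0.889 (EIF5A2) in Control, and the points of both groups are drawn side by side for each gene.

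Fold changes of the initiation factors went with the length of their exons, as did those of the whole transcriptome. Genes that were higher had a median exon length of 5040 bases and none under 2898, genes that were lower had a median of 1844 bases, and the 32 that did not pass had a median of 2552 bases. Over the 57 genes, Pearson's r between log2 exon length and log2 fold change was 0.41, given as a description, since the genes come from the same libraries. Over all genes tested, split into 10 groups by exon length, the median log2 fold change rose from -0.10 in the shortest (median 873 bases) to 0.12 in the longest (median 8625.5 bases). When this trend was removed with offsets fitted on length in each library, 14 members were higher and 9 lower. The calls of EIF3A, EIF4E, EIF4G3 and EIF2C4 among the higher genes and of EIF1, EIF2B1, EIF3F, EIF3I and EIF3L among the lower ones were then lost, with adjusted p between 0.0506 and 0.204, and 7 other members passed. EIF4EBP3 had a log2 fold change of 0.50 (adjusted p = 0.0132) in that fit and EIF2AK1 one of -0.08 (adjusted p = 0.0148). EIF2AK2, EIF2AK3, EIF2AK4, EIF2S1, EIF2S2, EIF2D, EIF3K, EIF4EBP1, EIF4G1, EIF5, EIF5A, EIF5AL1 and EIF5B, 13 of the 25 genes called, passed in this and in every other alternative, in the same direction. The size of some of these was nonetheless smaller with length offsets, by over 1.5 times for EIF3K (log2 fold change -0.08), EIF4EBP1 (-0.14), EIF5A (-0.10) and EIF4G1 (0.09). The part of exon length in the remaining calls was not tested beyond this fit.

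**Figure D4:**
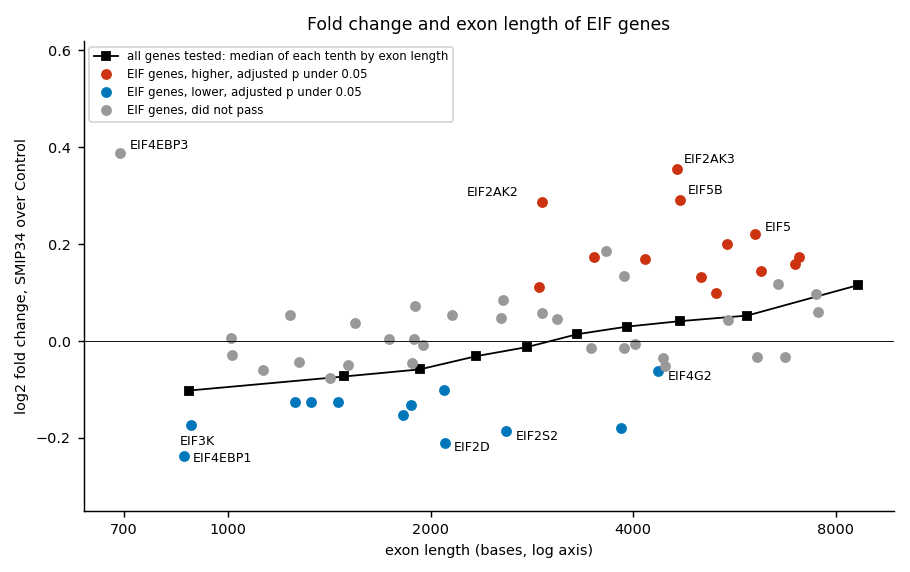
Log2 fold change (SMIP34 over Control) against exon length (bases, log axis) of the 57 EIF genes, with the median of each of 10 groups of all genes tested by exon length (black squares). The 13 higher genes (red) are all 2898 bases or longer, and the black line rises from -0.10 to 0.12.

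Many genes of the translation machinery begin at a C followed by a run of pyrimidines, the terminal oligopyrimidine tract through which mTORC1 and LARP1 control their translation. The transcript starts of the members were searched for a C at the start followed by at least 4 further C or T. RefSeq starts on GRCh38.p14, a later build than the hg19 of the count tables, were found for 49 of the 60 genes. A tract was present at a start of 9 genes (18.4%), against 5.14% of the 27305 genes in the same table. Their windows are shown because they carry this feature, from 10 bases before the start to the 20th base of the transcript, with the tract in capitals. The last bases in lower case before the capitals are promoter, and the transcript starts at the first capital.
EIF2D, chr1:206612446-206612475, minus strand: ccagccgggcCCTTTTCgcggccgggcccc
EIF3F, chr11:7987327-7987356, plus strand: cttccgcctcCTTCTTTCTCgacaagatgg
EIF3K, chr19:38619178-38619207, plus strand: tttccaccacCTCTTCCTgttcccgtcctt
EIF2A, chr3:150546777-150546806, plus strand: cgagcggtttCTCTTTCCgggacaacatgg
EIF2S3, chrX:24054946-24054975, plus strand: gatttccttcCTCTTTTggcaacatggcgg
EIF3D, chr22:36529147-36529176, minus strand: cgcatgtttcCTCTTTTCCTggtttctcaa
EIF3M, chr11:32583821-32583850, plus strand: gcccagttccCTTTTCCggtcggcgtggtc
EIF4A2, chr3:186783567-186783596, plus strand: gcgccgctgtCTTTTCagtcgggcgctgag
EIF4B, chr12:53006446-53006475, plus strand: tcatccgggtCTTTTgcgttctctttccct
Of these, EIF2D, EIF3F and EIF3K were lower, none was higher and 6 did not pass. Among all genes tested, 17.2% were lower and 17.4% higher. With length offsets the call of EIF3F was lost (adjusted p = 0.204). The median log2 fold change of the 9 genes was -0.01, against 0.06 over the 38 other matched genes tested. This is a description of 9 genes, and mRNA level does not measure translation. The promoter windows of 300 bases were also searched on both strands for TGATGNAA, the core of the element bound by ATF4. It was found in EIF4E3 alone, 2.04% of the members matched against 4.46% of all genes in the table. No start was found for EIF2AK1, EIF2C2, EIF2S2, EIF3A, EIF3CL, EIF3E, EIF3G, EIF3H, EIF3IP1, EIF3L and EIF4EBP1, so neither search covered them.

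Partners of the initiation factors under other symbols were examined as a list of 28 genes, all tested. Of these, 9 (32.1%) were higher, against 17.4% of all genes, and 4 (14.3%) lower, against 17.2%, with a median log2 fold change of 0.05. At the high end was PPP1R15A, also known as GADD34, which brings a phosphatase to the alpha subunit of eIF2 and so opposes the eIF2 kinases. It was at 131, 132 and 131 CPM in Control and at 246, 246 and 257 CPM in SMIP34, with no overlap (log2 fold change 0.93, standard error 0.030, adjusted p = 1.56e-18). Its constitutive counterpart PPP1R15B (log2 fold change 0.19), DNAJC3, an inhibitor of PERK and PKR (0.30), and GCN1L1, which GCN2 needs (0.13), were also higher. The ribosome helicase DHX29 (0.24), the recycling factor ABCE1 (0.11), the 4EHP partner GIGYF2 (0.14) and the inhibitors of poly(A)-binding protein PAIP2 (0.08) and PAIP2B (0.17) completed the higher genes. With length offsets the calls of GCN1L1 (0.04, adjusted p = 0.328), GIGYF2 (0.07, adjusted p = 0.203) and PAIP2B (0.12, adjusted p = 0.168) were lost, and with DESeq2 those of PAIP2 (adjusted p = 0.0959) and PAIP2B (0.137). The poly(A)-binding proteins PABPC1 (-0.07) and PABPC4 (-0.15), IMPACT, an inhibitor of GCN2 (-0.17), and BZW2 (-0.18), a relative of eIF5, were lower. BZW2, the lowest, was at 34.6, 32.4 and 32.8 CPM in Control and at 27.3, 30.5 and 30.0 CPM in SMIP34 (adjusted p = 0.0134). Its call was lost without Control replicate 1 (adjusted p = 0.0689) or SMIP34 replicate 1 (0.102), with length offsets (0.0779) and with DESeq2 (0.0622).

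Downstream of eIF2 phosphorylation, translation of the transcription factor ATF4 is known to increase. In a list of ATF4 and its target genes, 12 of the 16 genes tested (75%) were lower, against 17.2% of all genes. A single gene, 1 of the 16 (6.25%), was higher, against 17.4% of all genes. Log2 fold changes of the 16 had a median of -0.39, and those of all genes one of -0.0022. ATF4 mRNA itself was at 384, 385 and 378 CPM in Control and at 304, 293 and 291 CPM in SMIP34 (log2 fold change -0.37, standard error 0.027, adjusted p = 4.71e-11). The lowest was CHAC1 (log2 fold change -1.18), and the higher gene was SLC3A2 (0.09). The list holds only some targets of ATF4, and PPP1R15A (0.93) and EIF4EBP1 (-0.24), given above, are not in it. A list of mTORC1, whose kinase phosphorylates the 4E-binding proteins, and its regulators had 13 genes tested. Of these, 2 (15.4%) were higher, against 17.4% of all genes, and 5 (38.5%) lower, against 17.2%. The extremes were TSC1, an inhibitor of the pathway (0.21), and DEPTOR, an inhibitor of mTOR itself (-0.64). MTOR, the kinase, was also higher (0.17), a call that was lost with length offsets (0.08, adjusted p = 0.0734). The subunits MLST8 (-0.31) and RPTOR (-0.11), the Rag GTPase RRAGB (-0.20) and, apart from these, AKT1S1 (-0.30) were lower. RPTOR and RRAGB did not pass with DESeq2 (adjusted p = 0.143 and 0.163), nor RRAGB with length offsets (0.114).

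**Figure D5:**
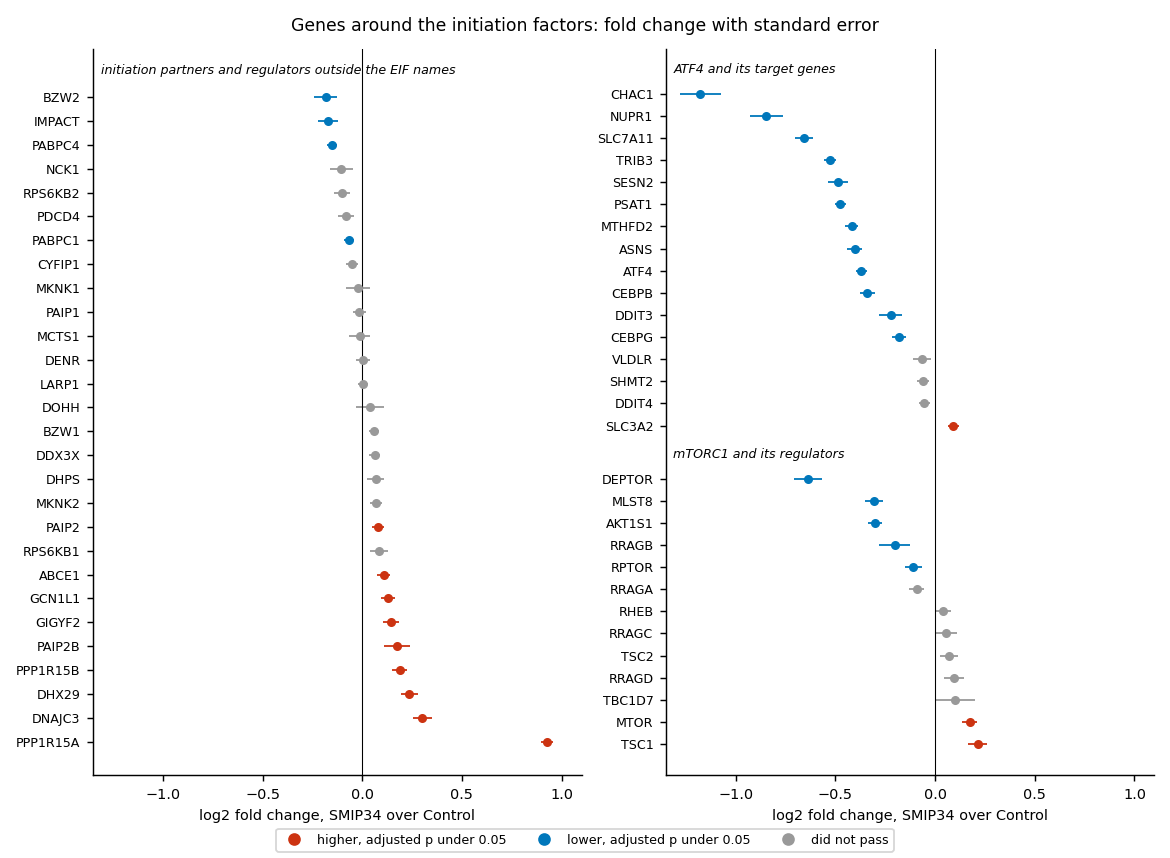
Log2 fold change (SMIP34 over Control, horizontal axis) with standard error of genes around the initiation factors, for 28 partners (left) and, on the right, 16 genes of the ATF4 list and 13 of the mTORC1 list. PPP1R15A lies apart from the other partners at 0.93, and 12 genes of the ATF4 list lie below 0 as calls (blue).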

How the data were processed

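The authors deposited 1 table of expected counts per library, that is fractional read counts per gene. Per the file headers they were made with featureCounts 1.5.0-p1 on the UCSC hg19 gene annotation, by strand, at a minimum mapping quality of 2, with multiply mapped or overlapping reads divided into fractions. The labels name HISAT2 for alignment, while the methods of the paper name other tools. Between 6.31 and 7.43% of values in a library were not whole numbers. Here the counts were rounded and genes filtered with filterByExpr. The quasi-likelihood test of edgeR 4.0.16 (R 4.3.3, TMM factors, Benjamini-Hochberg adjustment over all 13408 genes) compared 3 SMIP34 with 3 Control libraries, with all libraries in a single fit. A gene was called at an adjusted p under 0.05, and the further limit was an absolute log2 fold change over 0.5. CPM were scaled by TMM, and divided by exon length where given per kilobase. Every adjusted p is from this fit unless DESeq2 1.42.0, limma 3.58.1 or another setting is named. Calls on genes that overlap others on the opposite strand rest on stranded counting. The procedure was also run on simulated counts with known fold changes, but without a trend with exon length. That run does not measure how reliable the calls in these data are. Replicate numbers were not taken as pairs.

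Values in every library are given for genes with an absolute log2 fold change over 0.2 that were called, for all eIF2 kinases and 4E-binding proteins, and for the extremes and the most abundant member of each factor. EIF2S2, EIF4G1, ATF4 and the list genes named beside the extremes of each list were chosen after their values were seen. The members and the gene lists were chosen with earlier results of these data known. Alternatives were other scalings and filters, unrounded counts, the legacy quasi-likelihood method, limma voom, DESeq2, offsets from a loess fit (span 0.3) on exon length, a replicate block, other fold limits, and leaving out each library in turn.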

Additional observations from a re-analysis of the deposited data

How the results depend on the processing

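Counts of higher and lower members stayed within 1.5 times of 13 and 12 in all 18 alternatives, from 10 to 17 higher and from 8 to 13 lower, and no called member changed direction. DESeq2 gave 10 higher and 11 lower, and length offsets 14 and 9. With the replicate number as a block, 12 were higher and 11 lower, and 4432 of all genes passed, against 4645 without it. The correlations of deviations between libraries of the same number were -0.028, 0.033 and -0.011. These values show no shared deviation by number, but cannot tell whether libraries of the same number were prepared together. The median log2 fold change of the members, 0.0068 as reported, was 0.025 with library size only, -0.0069 with upper-quartile scaling, 0.023 with no filter on low counts, 0.047 with length offsets with or without the block, and between 0.0028 and 0.027 with each library left out. The number of members past the fold limit was 1 (EIF4EBP3) with length offsets and 3 at a limit of 0.25. Of the 32 members that did not pass, 14 changed sign in at least 1 alternative. Those whose values by library are given were EIF2S3 with library size only (0.0043), EIF4A1 with length offsets (0.0087, and 0.0088 with the block), EIF4EBP2 with length offsets (-0.013, and -0.012 with the block), and EIF4E2 with upper-quartile scaling (-0.0069) and with libraries left out (between -0.0079 and 0.035). EIF1B, EIF2A, EIF3D, EIF3E, EIF3G, EIF3H, EIF4A2, EIF4A3, EIF4B and EIF5A2 were the others. The causes were not tested. With 3 libraries per group, members at low CPM such as EIF4EBP3 and EIF5A2 were measured least precisely.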
